A study of Mus musculus with 18 samples.

Results

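The neuregulins Nrg1, Nrg2 and Nrg3 and the ErbB receptors Erbb2, Erbb3 and Erbb4 were examined in nuclei of the embryonic mouse forebrain. The 6 genes were taken by symbol from the 55335 genes of the count matrices. Forebrains were collected at E14 (embryonic day 14) from the mouse line MYT1L S710fsX, which carries a frameshift in Myt1l, the gene of a neuronal zinc finger transcription factor, on a C57BL/6 background. The 3 genotypes were wild type (WT), Het (1 mutant allele) and KO (the frameshift on both alleles), with 3 animals each, and the nuclei of each animal were measured in 2 runs by single-nucleus RNA-seq. The mutation is present in every cell of the Het and KO animals. The frameshift is not a deletion of the gene, and Myt1l RNA stayed detectable. Levels are given as CPM, the share that a gene takes of all UMIs of its class in an animal, brought to a common total. In excitatory neuron-like nuclei the WT animals held 1911 to 2209 CPM of Myt1l, the Het animals 2150 to 2431 and the KO animals 2396 to 2708, with every KO animal above every WT animal. In inhibitory neuron-like nuclei it was at 1444 to 1514 CPM in WT animals, against 1547 to 1642 for Het and 1684 to 1852 for KO, and no genotypes overlapped. A frameshift need not lower the RNA of its gene.

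Neuregulins are membrane-anchored or secreted proteins with an EGF-like domain that binds ErbB receptors on neighbouring cells. Erbb3 and Erbb4 bind neuregulins, and Erbb2, which binds no known ligand itself, pairs with them to start signalling through PI3K and MAP kinase pathways. In the developing forebrain, Nrg1 and Nrg3 are known to guide the tangential migration of interneurons that carry Erbb4, and Nrg1 also acts on radial glia and on the myelinating lineage, where Erbb3 is used.

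The genes differ greatly in size. In GENCODE vM21 (GRCm38, the assembly of mm10), all intervals below are whole gene loci, exons and introns together. Gene identifiers matched with their version except for Nrg1, which the files hold in another version, so its interval may differ from the one counted. Nrg1 spans chr8:31814551-32884029, Nrg3 spans chr14:38368952-39473088 and Erbb4 spans chr1:68032186-69108059, each on the minus strand, with lengths of 1069, 1104 and 1076 kb. Nrg2 lies on the minus strand at chr18:36017652-36197380. Erbb2 lies on the plus strand at chr11:98412470-98437716 and Erbb3 on the minus strand at chr10:128567523-128589652, and these loci are 25.2 and 22.1 kb long. Nuclear RNA is rich in introns, so a long gene collects more counts per transcript, and each gene is compared below only with itself. Strand use in counting was not given in the sources used here. The 3 genes that overlap Nrg3 on the other strand and the 2 that overlap Nrg1 there could share reads with them. So could the 8 small genes within Erbb4 on its own strand. The same holds for 4930471G03Rik, which overlaps Nrg2 on the other strand, and Gm27332, which overlaps Nrg3 on its own. Erbb2 and Erbb3 have overlapping genes too.

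Of 261143 barcodes, 195957 were kept, with medians of 2515 UMIs and 1535 genes and with 14959 (KO 1) to 26270 (KO 3) nuclei per animal. By Xist, WT 3 was the only female animal, whereas the study's methods speak of mixed sexes in every genotype. The nuclei formed 30 clusters, 26 of which took a class name from fixed marker lists, written as "-like" because the names were rebuilt here. The 46274 excitatory neuron-like, 54659 inhibitory neuron-like, 30276 radial glia-like and 19448 excitatory intermediate progenitor-like nuclei were the larger classes, beside 6788 inhibitory progenitor-like, 2081 Cajal-Retzius-like, 596 microglia and macrophage-like and 353 choroid plexus and ependymal-like nuclei. A further 17.7% stayed unnamed. The name choroid plexus and ependymal-like, given to cluster 28 alone, is uncertain, since of its 10 leading genes only 1, Ttr, was on the marker list, and the others included Rspo2, Rspo1, Lmx1a and the Wnt ligand Wnt3a. Diencephalic neuron-like nuclei (718, of which 717 were from Het 1) and oligodendrocyte progenitor-like nuclei (101, with 3 to 22 per animal) were too unevenly spread or too few to be compared between genotypes. Barcodes shared between libraries numbered 311 within an animal across runs, 2457 between animals across runs and 972 between animals within a run, and all were kept. The names of the clusters rest on a rule that went through 3 versions after the clusters had been seen, a point that bears on the genotype results below.

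Promoter sequence is shown for Nrg3, the only ligand with an entry in the RefSeq-based table whose RNA differed between WT and KO, and for Erbb4, the receptor of the inhibitory lineage, to show whether the AAGTT core that MYT1L is known to bind is present. The windows are the 250 bases upstream of the annotated start, on the strand of the gene in GRCm38.p6, at chr14:39473089-39473338 for Nrg3 and chr1:69108060-69108309 for Erbb4, and capitals mark AAGTT or its reverse complement AACTT.
Nrg3: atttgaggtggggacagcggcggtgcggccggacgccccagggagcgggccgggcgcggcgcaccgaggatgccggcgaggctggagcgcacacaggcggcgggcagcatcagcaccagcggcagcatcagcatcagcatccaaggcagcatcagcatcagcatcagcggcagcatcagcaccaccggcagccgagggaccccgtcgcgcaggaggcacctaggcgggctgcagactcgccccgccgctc
Erbb4: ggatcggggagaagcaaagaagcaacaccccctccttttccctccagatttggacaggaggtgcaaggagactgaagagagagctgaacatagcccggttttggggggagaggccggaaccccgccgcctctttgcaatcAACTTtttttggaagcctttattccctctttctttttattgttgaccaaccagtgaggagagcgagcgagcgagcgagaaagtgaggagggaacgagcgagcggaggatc
Nrg3 held 0 matches and Erbb4 held 1. Of 32851 windows of this length, 35.3% held at least 1 match on either strand, so a match is common and says nothing of binding. Of the 6 genes, 3 had an entry.

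The ligands were strongest in different cells. Nrg1 was highest in the excitatory lineage before and during migration. Excitatory intermediate progenitor-like nuclei, the dividing daughters of radial glia, held 11427 ± 798 CPM (mean ± SD, n = 9 animals), above the 7082 ± 544 CPM of radial glia-like nuclei in 9 of 9 animals and with no overlap. Cajal-Retzius-like nuclei (5711 ± 885 CPM) and excitatory neuron-like nuclei (5464 ± 587 CPM) followed and could not be ordered, since the former were higher in 5 of 9 animals. Inhibitory neuron-like nuclei were at 1529 ± 234 CPM, inhibitory progenitor-like nuclei at 860 ± 114 CPM, and choroid plexus and ependymal-like and microglia and macrophage-like nuclei near 140 CPM. Within excitatory neuron-like nuclei of WT animals the level was uneven. It was 12811 CPM in cluster 2, named for migrating neurons, 3984 CPM in cluster 3 and 1121 CPM in the deep-layer cluster 7.

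Nrg3 had nearly the opposite order along that lineage. It was highest in Cajal-Retzius-like nuclei (5179 ± 821 CPM, n = 9 animals) and in excitatory neuron-like nuclei (3929 ± 554 CPM). The ranges of these classes overlapped, and excitatory neuron-like nuclei were highest when clustering left out the members and pathway lists. Inhibitory neuron-like (2179 ± 316 CPM) and radial glia-like nuclei (1257 CPM) followed. Nrg3 was at 253 CPM in excitatory intermediate progenitor-like nuclei. Among WT excitatory neuron-like clusters, migrating cluster 2 held 291 CPM, cluster 3 held 4650 CPM and deep-layer cluster 7 held 8896 CPM. Nrg1 was thus highest where Nrg3 was lowest among these 3 clusters.

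Nrg2 was highest in inhibitory neuron-like nuclei, with a mean of 69.0 ± 9.10 CPM (n = 9 animals), followed by choroid plexus and ependymal-like nuclei, whose spread was wide (39.9 ± 31.9 CPM), and then by excitatory neuron-like and Cajal-Retzius-like nuclei. Inhibitory neuron-like nuclei were above choroid plexus and ependymal-like nuclei in 8 of 9 animals. Excitatory neuron-like and Cajal-Retzius-like nuclei had means of 28.3 and 18.7 CPM over WT animals and of 12.5 and 12.6 CPM over KO animals, so that this pair had no single order over the genotypes. Excitatory intermediate progenitor-like and microglia and macrophage-like nuclei held 4.57 and 4.12 CPM. Inhibitory neuron-like clusters 15, 16 and 21 reached 118 to 130 CPM in WT animals, and deep-layer cluster 7 held 65.6 CPM against 4.25 CPM in migrating cluster 2.

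**Figure D1:**
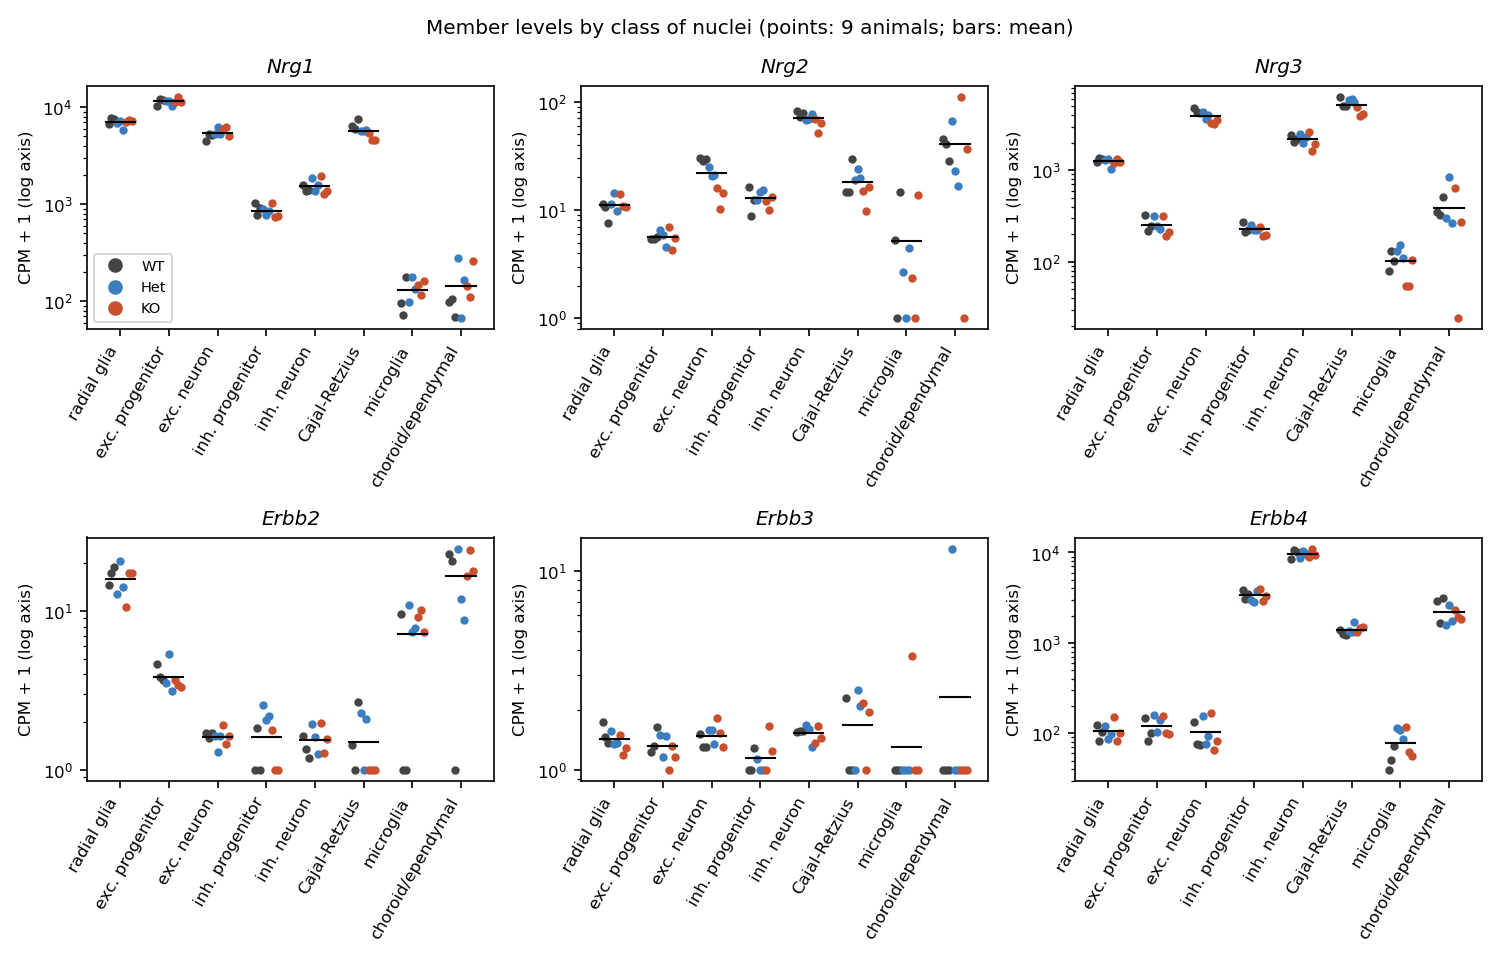
Level of each of the 6 genes by cell class, as CPM on a logarithmic axis, with 1 point for each animal. Nrg1 peaks in excitatory intermediate progenitor-like nuclei (11427 CPM), Nrg3 in Cajal-Retzius-like nuclei (5179 CPM), Nrg2 and Erbb4 in inhibitory neuron-like nuclei (69.0 and 9698 CPM).

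Of the receptors, Erbb4 marked the inhibitory lineage. Inhibitory neuron-like nuclei held 9698 ± 901 CPM (n = 9 animals) and inhibitory progenitor-like nuclei 3361 ± 432 CPM, followed by choroid plexus and ependymal-like (2195 ± 567 CPM) and Cajal-Retzius-like nuclei (1394 ± 146 CPM). The other 4 of the 8 compared classes held 77.5 to 120 CPM. Inhibitory neurons themselves were divided. Clusters 8, 10 and 25, named for medial ganglionic eminence interneurons, held 28003, 19897 and 9214 CPM in WT animals, and cluster 18, named for caudal ganglionic eminence interneurons, held 17933 CPM. Of the clusters named for striatal projection neurons, 9 and 20 held 342 and 258 CPM and cluster 23 held 2274 CPM. The 101 oligodendrocyte progenitor-like nuclei, pooled over animals, held 6879 CPM (exact Poisson 95% interval 6585 to 7182, counting error only). The 718 diencephalic neuron-like nuclei, nearly all of Het 1, held 1207 CPM (1158 to 1257). Nrg1 and Erbb4 were among the variable genes used for clustering, so their contrast between clusters is a description, and the other 4 genes were not among them.

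The low Erbb4 level in excitatory neuron-like nuclei was set beside the level of Gad1, a gene of inhibitory neurons. Pooled over animals, Erbb4 was at 98.0 CPM there. At the ratio of Erbb4 to Gad1 seen in inhibitory neuron-like nuclei, the Gad1 reads in excitatory neuron-like nuclei correspond to 121 CPM of Erbb4. The Erbb4 level was below that value, and the source of these reads, such as free RNA, was not tested. It was also below it in radial glia-like (101 against 121 CPM) and excitatory intermediate progenitor-like nuclei (116 against 151 CPM). Inhibitory progenitor-like nuclei were below it too (3257 against 6132 CPM), although Erbb4 was high there. A level under this value therefore does not show background. Cajal-Retzius-like nuclei (1408 against 203 CPM) and choroid plexus and ependymal-like nuclei (2098 against 139 CPM) were far above the value from Gad1. Nrg2 in excitatory neuron-like nuclei was also above its own such value (20.7 against 0.847 CPM).

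Erbb2 and Erbb3 rest on few counts in most classes. Erbb2, the partner receptor, was at 15.6 ± 7.97 CPM (n = 9 animals) in choroid plexus and ependymal-like nuclei, from only 17 counts, and at 9.67 to 19.8 CPM in radial glia-like nuclei of the same animals, from 1250 counts, with the former higher in 6 of 9 animals, so these could not be ordered. It was at 2.84 CPM in excitatory intermediate progenitor-like nuclei and under 1 CPM in neuron-like classes. Erbb3 reached a mean of at most 1.32 CPM in any compared class, from 1 animal. Oligodendrocyte progenitor-like nuclei, the lineage in which Erbb3 is best known, held 6 Erbb3 counts among 299617 over all animals (exact Poisson 95% interval 7.35 to 43.6 CPM).

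**Figure D2:**
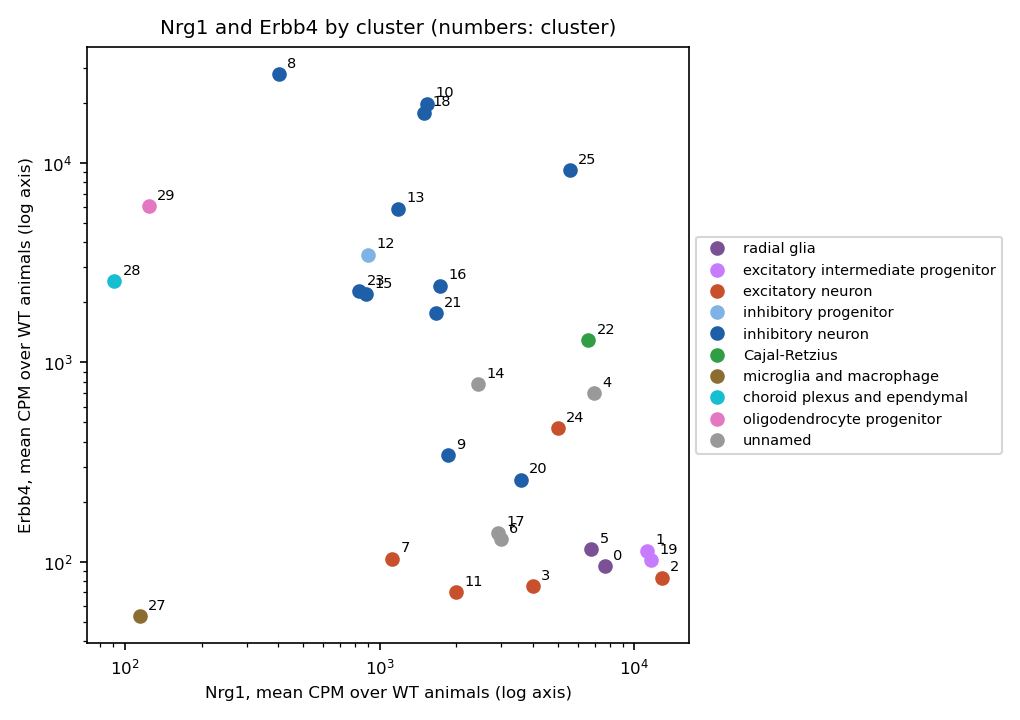
Nrg1 level against Erbb4 level in each cluster, WT animals, mean CPM on logarithmic axes, 1 numbered point per cluster coloured by class. Migrating excitatory cluster 2 (Nrg1 12811 CPM) and interneuron cluster 8 (Erbb4 28003 CPM, Nrg1 401 CPM) lie at opposite corners.

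The genes whose level over clusters was most like that of each member were sought over 28 clusters of at least 200 nuclei, all genotypes counted, with levels from WT animals, as a description. For Nrg3 they were Nrg3os (Pearson r = 0.98) and Gm20642 (r = 0.97), which both overlap Nrg3 on the other strand, and then Ntm (r = 0.81). For Erbb4 they were Gm37769 (r = 0.99), Gm37061 and Gm37735 (both r = 0.96), all of which lie within Erbb4 on its strand, and for these overlapping genes shared reads cannot be told apart from shared pattern. Nrg1 was most like Gm26604 (r = 0.83), Bpnt1 and Gm13974. Nrg2 was most like Tspoap1 (r = 0.95), Frmd3 and Caly, and Erbb2, which never reached 20 CPM in a cluster, was most like Col4a5 (r = 0.94), Fabp7 and Hes1. For Erbb3, also under 20 CPM in each of these 28 clusters, the most alike was Zbtb9 (r = 0.61). Clusters share libraries and depth, so these correlations are not tests.

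Whether loss of MYT1L changed these genes was asked with counts summed per animal and class, in 8 classes. Erbb3 passed the filter on low counts in no class, Erbb2 in 3, Nrg2 in 6 and Nrg1, Nrg3 and Erbb4 in all 8, which made 33 tests per contrast. A call needed an adjusted p under 0.05 together with a change of more than 0.2 on the log2 scale. In KO against WT 2 of 33 were called, Nrg2 and Nrg3 in excitatory neuron-like nuclei, both lower in KO. In that class 0.97% of all 18034 genes tested were called, 0.349% as lower. The share called was 0.0105% in inhibitory neuron-like nuclei, 0.302% in Cajal-Retzius-like nuclei and 0% in the other 5 classes. DESeq2 also called both (1.52% of all 18034 genes in the class, of which 5944 were given no adjusted p). Animals with the same replicate number deviated together in this class, and with that number as a block 5 of the 33 tests were called, of Nrg1, Nrg2 and Nrg3 alone. Nrg1, Nrg2 and Nrg3 were called in excitatory neuron-like nuclei, where 5.63% of genes were. The others were Nrg2 in inhibitory neuron-like nuclei (0.964% of genes) and Nrg1 in Cajal-Retzius-like nuclei (93 of 8927 genes). Both calls depend on how clusters were named. Under the first form of the naming rule, in which deep-layer cluster 7 had no name and so was not in the class, Nrg2 was at a log2 fold change of -0.93 (adjusted p = 0.0581) and Nrg3 at -0.38 (adjusted p = 0.0965), and 0 of the members were called in any class. The share of all genes called under that form is not given, so this count has no measure beside it.

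Nrg2 in excitatory neuron-like nuclei was at 29.1, 27.1 and 28.7 CPM in WT 1 to 3. The Het animals held 24.1, 19.6 and 20.1 CPM, and the KO animals 14.9, 9.26 and 13.4 CPM. Every WT animal was above every Het animal, and every Het animal above every KO animal. The log2 fold change of KO against WT was -1.16 (SE 0.132, 95% interval -1.45 to -0.88, edgeR adjusted p = 0.00238), a KO level 0.446 times that of WT.

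Nrg3 in the same nuclei was at 4793, 4346 and 4251 CPM in WT 1 to 3. The Het animals held 4358, 3659 and 3972 CPM, and the KO animals 3237, 3175 and 3571 CPM. The KO animals lay below all the others, while the ranges of WT and Het overlapped, although within each replicate number Het was below WT. The log2 fold change of KO against WT was -0.40 (SE 0.066, 95% interval -0.54 to -0.26, edgeR adjusted p = 0.0148), and without WT 1, WT 2 or KO 2 the adjusted p was 0.0562, 0.0510 and 0.0705. With each cluster of the class given the same weight in every animal, which fixes the shares of clusters but not the mix of nuclei within them, the difference was -1.06 for Nrg2 and -0.32 for Nrg3, and the ranges of the 3 WT and 3 KO animals stayed apart for both (exact permutation p = 0.1, two-sided, the smallest that 3 against 3 animals can give).

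Run 1 held fewer nuclei and fewer UMIs in all than run 2 in every animal, though not fewer UMIs per barcode. It gave -1.29 for Nrg2 (edgeR adjusted p = 0.490) and -0.47 for Nrg3 (adjusted p = 0.817), and run 2 gave -1.10 (adjusted p = 0.00393) and -0.36 (adjusted p = 0.0168). Markers of other cell types were looked at in the same nuclei. The 10 inhibitory neuron markers summed to 53.9 to 78.3 CPM in WT and 42.2 to 74.8 CPM in KO animals, with 0 of 10 called. Of the 10 diencephalic neuron markers, 8 were tested and 1, the Wnt pathway factor Lef1, rose in KO (list sum 261 to 287 CPM in WT, 297 to 365 CPM in KO). The 9 excitatory intermediate progenitor markers (8 tested, 0 called) summed to 362 to 374 CPM in WT and to 378 to 413 CPM in KO animals, so that every KO animal was above every WT animal. The part of these lists in the result was not tested. Nrg3os and Gm20642, which overlap Nrg3, were at log2 fold changes of -0.40 (adjusted p = 0.188) and -0.36 (adjusted p = 0.546).

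**Figure D3:**
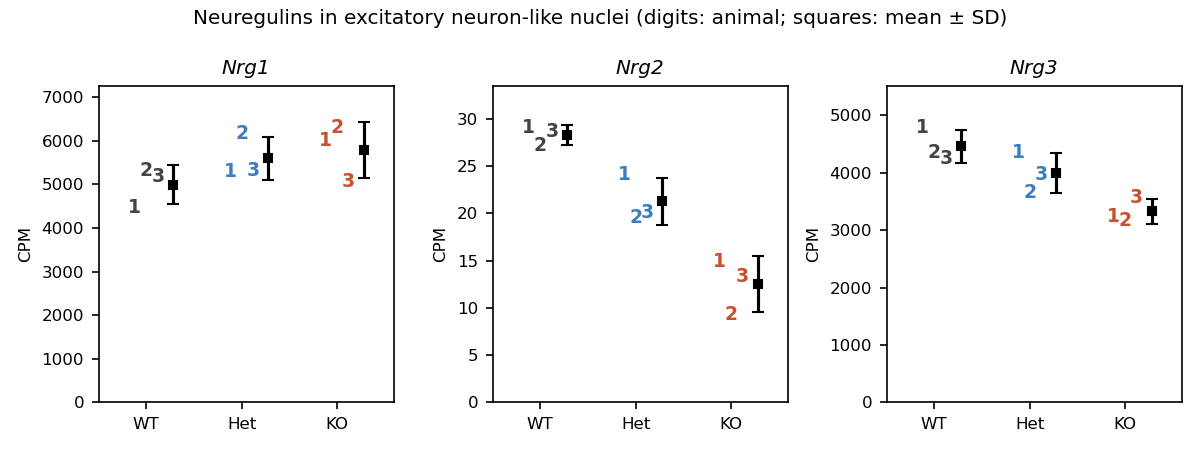
Level of Nrg1, Nrg2 and Nrg3 in excitatory neuron-like nuclei by genotype, CPM on linear axes, with digits for the animals and squares with bars for the mean and SD of 3 animals. Nrg2 steps down from WT (27.1 to 29.1 CPM) through Het to KO (9.26 to 14.9 CPM), Nrg3 is lowest in KO, and Nrg1 overlaps between genotypes.

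By cluster number, free of class names, 5 of 109 tests were called in KO against WT, all lower in KO. With the replicate block 13 were called, 3 higher and 10 lower in KO. The block called 5.48, 3.66 and 7.65% of genes in clusters 3, 6 and 7. The 13 were not all in these clusters. They included Nrg1 in cluster 22, the Cajal-Retzius-like cluster, where 93 of 8927 genes were called. Block shares for the other clusters are not given. Cluster 3 had Nrg2 at -1.20 (edgeR adjusted p = 0.00371) and Nrg3 at -0.36 (adjusted p = 0.00353), and 1.5% of all genes tested there were called. Deep-layer cluster 7 had Nrg2 at -1.15 (adjusted p = 0.00307), with 2.84% of all genes called, and Nrg3 at -0.25 (adjusted p = 0.0550). The unnamed cluster 6, led by Tfap2d, had Nrg2 at -0.85 (adjusted p = 0.0155) and Nrg3 at -0.52 (adjusted p = 0.0195), with 0.951% of all genes called.

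The clusters of the class were alike in direction for Nrg2. In cluster 7 it was at 61.6, 67.4 and 67.9 CPM in the WT animals and 45.1, 22.5 and 24.4 CPM in the KO animals, and in cluster 3 at 13.6, 11.1 and 16.6 CPM against 5.31, 5.65 and 6.21 CPM. The estimate was below 0 in 5 of 5 excitatory neuron-like clusters, with an interval wholly below 0 in 3, and in 10 of 10 inhibitory neuron-like clusters tested, with an interval below 0 in 5 and 0 called. For Nrg3 it was below 0 in 4 of 5 excitatory neuron-like clusters, each with an interval below 0, and cluster 24 was the exception (0.07).

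**Figure D4:**
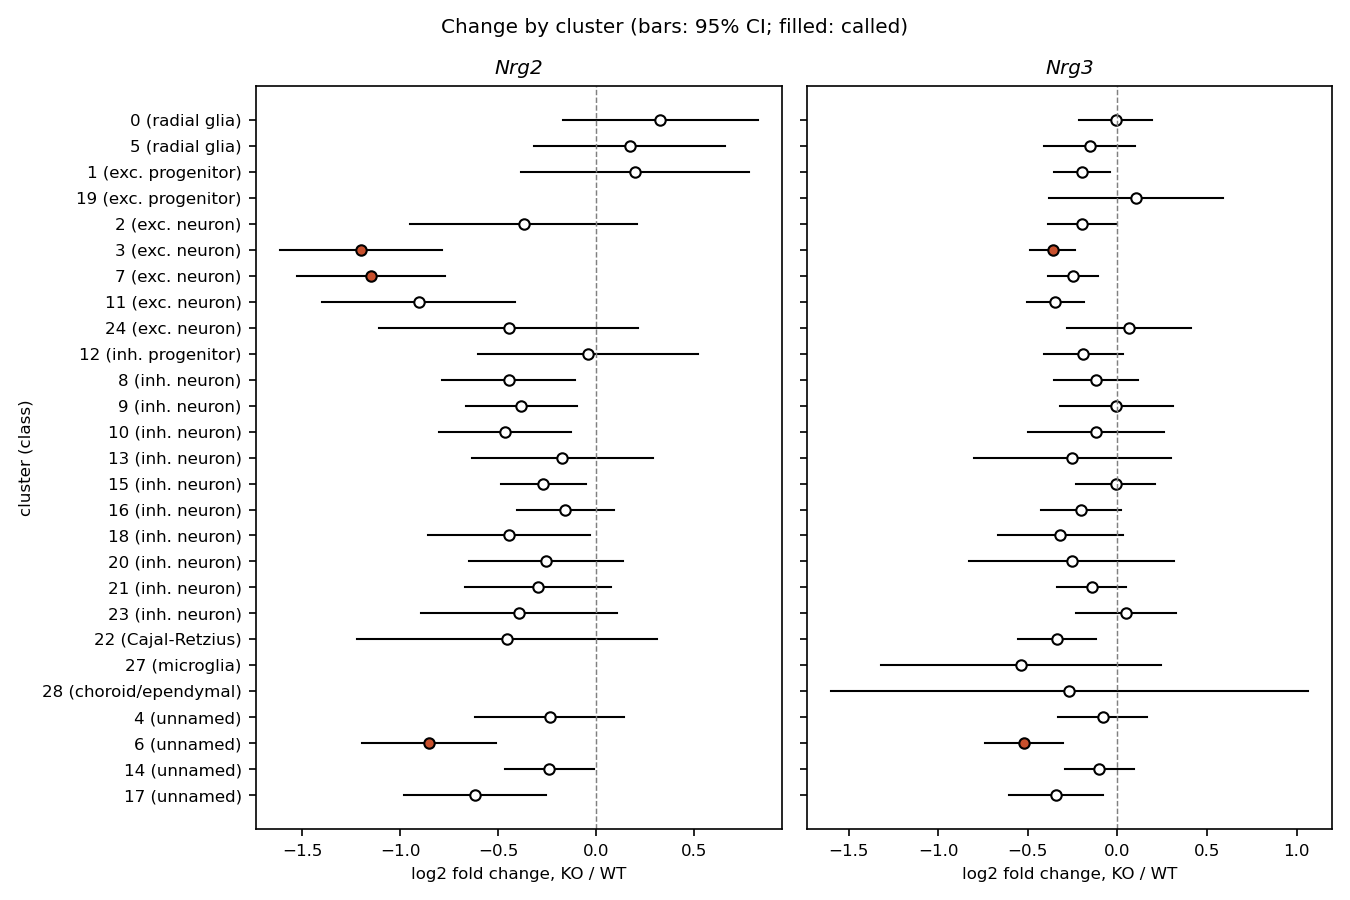
Log2 fold change of KO against WT for Nrg2 and Nrg3 in each cluster tested, with 95% intervals as bars and filled points for called values. The called points are in clusters 3, 6 and 7 for Nrg2 and in clusters 3 and 6 for Nrg3.

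Inhibitory neuron-like nuclei, where Nrg2 was highest among the compared classes, held it at 80.2, 71.5 and 77.7 CPM in WT 1 to 3. The Het animals held 66.9, 67.7 and 76.3 CPM and the KO animals 67.9, 50.1 and 62.9 CPM. All KO animals were below all WT animals. The log2 fold change was -0.32 (SE 0.097) and was not called (edgeR adjusted p = 0.655). With the replicate number as a block it was -0.33 and called (adjusted p = 0.0490, with 0.964% of genes called). The excitatory intermediate progenitor markers in these nuclei summed to 302 to 319 CPM in WT and 320 to 379 CPM in KO animals. None of them was called, and their part in the result was not tested. The difference of the Nrg2 change between excitatory and inhibitory neuron-like nuclei, within animals, was -0.85 (SE 0.136, limma adjusted p = 0.418). No gene of 17647 passed that comparison (0%), so no change is shown to be particular to either class. In simulated data the same comparison found 34.9% of true log2 differences of 1, so it could miss many.

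Nrg1 was not called in any class. In excitatory neuron-like nuclei it was at 4481, 5330 and 5178 CPM in WT and 5999, 6312 and 5077 CPM in KO animals, which overlap, with a log2 fold change of 0.24 (95% interval 0.01 to 0.46, edgeR adjusted p = 0.381, and 0.0315 with the replicate block). It was 0.12 with clusters weighted alike (exact permutation p = 0.3) and 0.16 both without WT 1 and without KO 2. Of the 5 excitatory neuron-like clusters, 4 had an estimate above 0 and 1 below. The interval was wholly above 0 in 3, and 0 were called without the block. Cajal-Retzius-like nuclei held 6345, 5919 and 7482 CPM in WT 1 to 3, and the Het animals held 5633, 5638 and 5805 CPM and the KO animals 5426, 4550 and 4597 CPM. There the genotypes did not overlap, at a log2 fold change of KO against WT of -0.43 (95% interval -0.64 to -0.22, adjusted p = 0.0660), beside 0.302% of genes called in the class. DESeq2 called it (adjusted p = 0.0220), with 0.392% of the 8927 genes called, of which 5884 were given no adjusted p. Over 19 alternatives the estimate ran from -0.53 to -0.23 and the adjusted p from 0.00123 to 0.506. The weakest was the first form of the naming rule. That form put cluster 14, unnamed in the final rule and led by Car10, into this class, adding 5308 nuclei to the 2081. Its estimate is therefore mostly of other nuclei. Nrg3 in these nuclei was at 6295, 4993 and 5085 CPM in WT 1 to 3, and the Het animals held 5868, 5986 and 5490 CPM and the KO animals 4874, 3861 and 4156 CPM. KO lay below the others, while Het and WT overlapped and the Het mean was above that of WT. KO against WT was at -0.34 (adjusted p = 0.224), and from -0.45 to -0.17 over the alternatives, with adjusted p from 0.0358 to 0.641. Of the marker lists in Cajal-Retzius-like nuclei, 1 gene of the caudal ganglionic eminence list, Adarb2, rose in KO. The 10 Cajal-Retzius markers summed to 22692 to 26540 CPM in WT and 21878 to 25228 CPM in KO animals, with 0 called. The inhibitory progenitor list summed to 120 to 157 CPM in WT and 87.8 to 119 CPM in KO animals. The mural and fibroblast list summed to 9.14 to 27.9 CPM in WT and 29.2 to 42.2 CPM in KO animals. For these lists WT and KO did not overlap, with 0 called, and their part in the result was not tested.

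The receptors gave no call. Erbb4 in inhibitory neuron-like nuclei was at 8470, 10575 and 10062 CPM in WT 1 to 3, and the Het animals held 8722, 10509 and 9578 CPM and the KO animals 8983, 11047 and 9339 CPM. The genotypes overlapped, at a log2 fold change of KO against WT of 0.04 (95% interval -0.23 to 0.31, edgeR adjusted p = 0.986). In excitatory neuron-like nuclei, where its level was low, Erbb4 was highest in replicate 1 of each genotype. It was at 134, 155 and 169 CPM in WT 1, Het 1 and KO 1. The log2 fold change of KO against WT there was 0.19 (95% interval -0.52 to 0.90). Erbb2 in radial glia-like nuclei averaged 16.0 ± 2.22 CPM over WT, 14.9 ± 4.28 over Het and 14.2 ± 3.89 over KO animals (SD, n = 3 each), with a log2 fold change of -0.14 (95% interval -0.61 to 0.34).

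**Figure D5:**
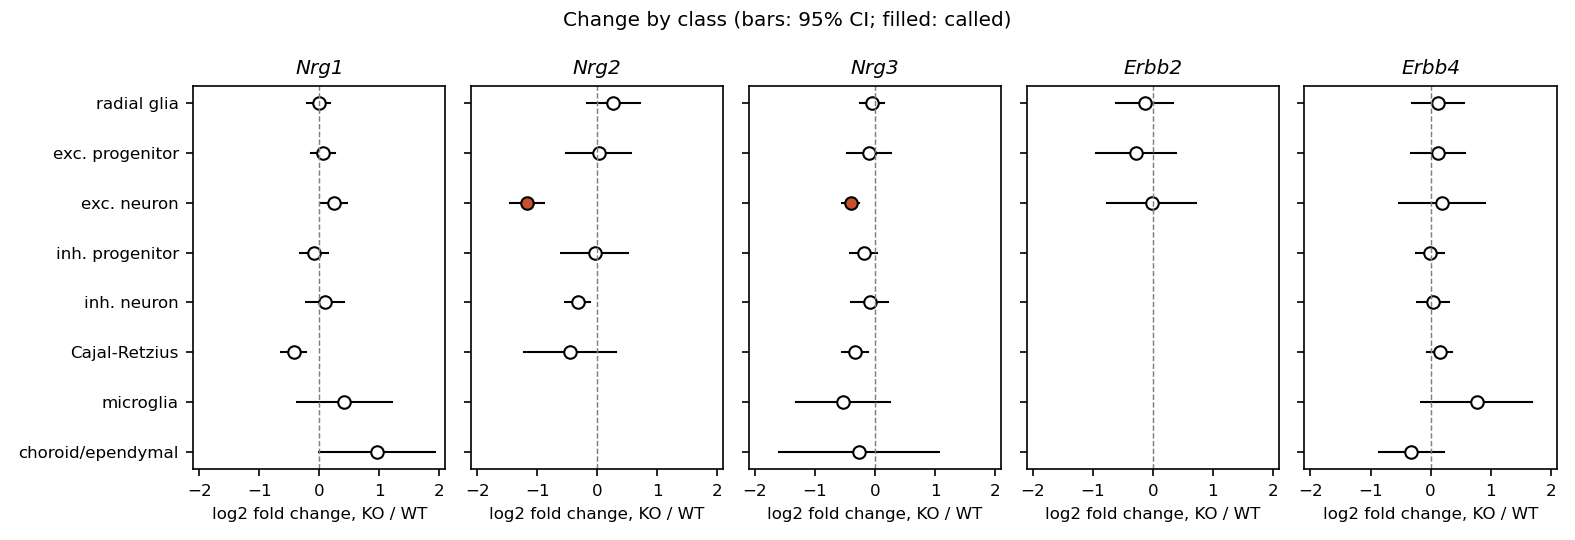
Log2 fold change of KO against WT for each member in each class tested, with 95% intervals as bars and filled points for called values. Only Nrg2 (-1.16) and Nrg3 (-0.40) in excitatory neuron-like nuclei are called, and Erbb3 was not tested in any class.

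Het animals lay between the others for Nrg2 in excitatory neuron-like nuclei. In Het against WT, 0 of 33 tests were called by edgeR and 0 by DESeq2, with 3 at an unadjusted p under 0.05, and 0% of genes in excitatory neuron-like nuclei were called, where 616 of 18034 genes were at an unadjusted p under 0.05. Nrg2 was at -0.40 and Nrg3 at -0.15 there, both with an adjusted p near 1. In KO against Het, 0 of 33 were called by edgeR (0.00555% of genes in excitatory neuron-like nuclei), with 6 at an unadjusted p under 0.05, as were 964 of 18034 genes in that class. DESeq2 called 2 and the fit with the replicate block 3, each with Nrg3 in Cajal-Retzius-like nuclei among them. In Cajal-Retzius-like nuclei they called 21 and 31 of 8927 genes, and in excitatory neuron-like nuclei 0.144% and 0.505%. DESeq2 gave no adjusted p to 6643 of the 18034 genes there, or to 6230 of 8927 in Cajal-Retzius-like nuclei. Nrg2 was at -0.76 (adjusted p = 0.175, and 0.000753 with the block) and Nrg3 at -0.25 (adjusted p = 0.457, and 0.0276 with the block), and Nrg3 in Cajal-Retzius-like nuclei was at -0.43 (adjusted p = 0.152 beside 0.101% of genes called, and 0.0328 with DESeq2 beside 0.235%). The contrasts share animals and are not independent. Over all genotypes at once, 1 of 33 was called, Nrg2 in excitatory neuron-like nuclei, where 0.244% of genes were. For this test DESeq2 called 4 of the members' tests and the fit with the replicate block 3. These calls need not all lie in excitatory neuron-like nuclei. DESeq2 and the block called 174 and 653 of 18034 genes in that class. In inhibitory neuron-like nuclei they called 18 and 54 of 19078 genes, and in Cajal-Retzius-like nuclei 36 and 66 of 8927.

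Few calls were made in the rest of the pathway. Of 9 other EGF family genes, 18 genes of neuregulin shedding and receptor turnover and 69 ErbB adaptors and effectors, 68 of the last being in the files, 2 calls were made in KO against WT, 1 of the 66 adaptors and effectors tested in excitatory neuron-like nuclei (where 0.97% of all genes were called) and 1 of 53 in Cajal-Retzius-like nuclei (0.302%). Gab1, a docking protein that links ErbB receptors to PI3K, rose in excitatory neuron-like nuclei from 123 ± 9.06 to 154 ± 5.56 CPM (SD, n = 3 animals each; log2 fold change 0.34, SE 0.074, edgeR adjusted p = 0.0499), with no overlap between WT and KO animals. Camk2b, a calcium-dependent kinase subunit, fell in Cajal-Retzius-like nuclei from 69.2 ± 5.15 to 36.0 ± 1.42 CPM (log2 fold change -0.92, SE 0.180, adjusted p = 0.0323), also with no overlap, and was not called by DESeq2. Without WT 1, WT 3, Het 3 or KO 2 neither gene was called. In excitatory neuron-like nuclei, 7 of 9, 18 of 18 and 66 of 69 genes of the lists were tested. Their median log2 fold changes were -0.03, 0.05 and 0.02, beside -0.01 over all genes of the class. With the replicate block, 3 of the 66 adaptors and effectors rose and 3 fell in excitatory neuron-like nuclei, beside 5.63% of all genes called. Prkcb, protein kinase C beta, was at -0.82 (adjusted p = 4.22e-05, and 0.00154 with DESeq2). Of the PI3K regulatory subunits, Pik3r3 was at 0.32 and Pik3r1 at -0.32. The others called were Gab1 (0.34), Map2k1 (0.30) and Akt1 (-0.26). Hbegf, an EGF family ligand, was at -0.74 (adjusted p = 0.0238 with the block). Its level there was low, at a mean of 2.99 CPM over animals (1.57 to 4.14 CPM), and it was called only with the block. Adam17, a protease that sheds ErbB ligands and the only gene called of the 18 in its list, was at 0.22 (adjusted p = 0.0467 with the block). In inhibitory neuron-like nuclei 2 of 67 adaptors and effectors rose with the block, beside 0.964% of all genes.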

How the data were processed

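Single-nucleus RNA sequencing (Scale Biosciences kit, combinatorial barcoding) was done on E14 forebrain of 9 animals, 3 per genotype, over 2 runs, which gave 18 libraries. The authors mapped reads to mm10 with ScaleRna v1.4 and separated nuclei with CellFinder v1.5, and they deposited estimated counts of UMIs per gene and nucleus, not all whole numbers. The submitters' processing notes also name Seurat 4.3.0, DESeq2 1.38.3 and Scanpy 1.12.0. Annotation release and strand use were not given in the sources used here.

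Nuclei were kept with the study's limits on genes (300 to 3000), UMIs (800 to 6000), mitochondrial share (1%) and the ratio of log(genes) to log(UMIs) (0.9 or more), and the 5% with the highest doublet score, an own nearest-neighbour score against simulated doublets, were removed per library. The study states more nuclei and higher medians than these limits gave here. Clustering used scanpy 1.11.5 and Leiden at resolution 1 (igraph 0.11.9) on 3000 variable genes. A cluster was named from marker lists by a rule that went through 3 versions after the clusters were seen, and the first version is an alternative.

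Counts were summed over nuclei and runs per animal and class, rounded, and tested with edgeR 4.0.16 (filterByExpr, TMM, quasi-likelihood F-test, two-sided, R 4.3.3), genotype only, for classes in which every animal had 20 nuclei or more, with Benjamini-Hochberg adjustment over all genes of the class. CPM divides by the total of the class and animal. Total UMIs per animal ranged from 43327617 (KO 1) to 74120346 (WT 2). Intervals on pooled counts cover counting error only. Same-numbered animals deviated together (every correlation over 0.1) in excitatory neuron-like, inhibitory neuron-like, radial glia-like and excitatory intermediate progenitor-like nuclei, so a fit with the replicate number as a block is given beside those results whose calls it changes. What a number marks is not in the labels, and in the other 4 classes not every correlation passed. Per the study's methods the E14 animals came from 3 litters, and which animal was of which litter, or whether the replicate number marks it, is not in the labels. The edgeR and limma fits were tested on simulated data. The named genes were the 6 members, the called genes of the pathway lists and the 3 most similar genes per member, of which some are not reported here. Other tools were DESeq2 1.42.0 and limma 3.58.1. Shares called by DESeq2 are over all genes tested, including those it gave no adjusted p. Members and lists were chosen with earlier results of these data known. Groups came from sample titles, since the genotype tag of run 1 reads WT for every library. No sequence of Nrg2 is shown.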

Additional observations from a re-analysis of the deposited data

How the results depend on the processing

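Of the members, Nrg2 and Nrg3 in excitatory neuron-like nuclei of KO animals kept their direction under all alternatives run, from -1.30 to -0.93 and from -0.47 to -0.32. Results not called as reported kept theirs too. These were Nrg1 in the same nuclei (0.12 to 0.34) and Nrg2 in inhibitory neuron-like nuclei (-0.42 to -0.22). In Cajal-Retzius-like nuclei they were Nrg1 (-0.53 to -0.23) and Nrg3 (-0.45 to -0.17). The calls, however, rest on choices. In KO against WT 2 of 33 tests were called, against 5 with the replicate block and 0 of the 20 tests that run 1 alone allowed. There were 5 calls without the filter on low counts, and 0 under the first form of the naming rule (an alternative chosen after seeing the data). Leaving out an animal gave 1 to 4 calls (1 without WT 1 or KO 2, 4 without KO 1). The number of tests can differ between these fits. The share of all genes called is not given, in any contrast, for the fits without the filter or without an animal. Nor is it given for run 1 alone or for the first form of the naming rule. The counts of calls in all these fits therefore have no measure beside them. For Nrg2 the value was -1.29 in run 1 (adjusted p = 0.490), -0.93 under the first naming rule (adjusted p = 0.0581), -1.06 with clusters weighted alike (p = 0.1, exact, the smallest possible) and -1.30 to -0.999 leaving out an animal (adjusted p 0.000945 to 0.0180). For Nrg3 it was -0.47, -0.38, -0.32 and -0.44 to -0.36, the last losing the call without WT 1, WT 2 or KO 2.

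KO against Het had 0 calls, against 2 with DESeq2, 3 without the filter, 3 with the block and 0 to 1 leaving out an animal. Over all genotypes 1 call became 4 with DESeq2, 3 with the block and 1 to 3 leaving out an animal, while the genes called in excitatory neuron-like nuclei went from 44 of 18034 to 174 with DESeq2 and 653 with the block. In Cajal-Retzius-like nuclei they went from 21 of 8927 to 36 and 66. By cluster, 5 calls became 13 with the block, and in the pathway lists 2 became 11 with the block and 0 to 3 leaving out an animal. Het against WT had 0 calls in all 19 alternatives. Erbb4 in inhibitory neuron-like nuclei turned from 0.04 to -0.060 without WT 1 and -0.077 without KO 2, in a range of -0.077 to 0.122 when an animal was left out. In Cajal-Retzius-like nuclei, where not every same-number correlation passed 0.1, the block added calls for Nrg1 in KO against WT (adjusted p = 0.0246) and Nrg3 in KO against Het (adjusted p = 0.0266), where all genes called went from 27 to 93 and from 9 to 31 of 8927. The class with the highest level held for 3 of the 6 genes when clustering left out the members and pathway lists (Nrg1, Nrg2 and Erbb4), against Nrg3, Erbb2 and Erbb3, which changed class. No cluster of that clustering took the name choroid plexus and ependymal-like, the class in which Erbb2 and Erbb3 had their highest mean. Erbb2 and Erbb3 could therefore not keep their class, whatever their levels. For Nrg3 the cause of the shift was not tested. Adding cluster 6 to the class or taking the difference between classes were also chosen after seeing the data, as were levels without Het 1. Erbb3 had too few counts to be tested in any class.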

Other observations

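The other ligands of the EGF family were low in most neuron-like classes. Egfr, the receptor that binds EGF and TGF-alpha but no neuregulin, was at 111 CPM in the unnamed cluster 4, led by Otx2os1 and Otx2. It was at 100.5 CPM in microglia and macrophage-like nuclei (63.5 to 213 CPM between animals). In oligodendrocyte progenitor-like nuclei it was at 62.2 CPM, with a range of 0 to 238 CPM between animals (all means over animals). Tgfa ranged from 0 to 158 CPM between animals in oligodendrocyte progenitor-like nuclei and up to 54.4 CPM in microglia and macrophage-like nuclei. Hbegf, a ligand of both Egfr and Erbb4, was at 26.5 CPM in microglia and macrophage-like nuclei. Egfr is among the leading genes of cluster 4, so that level is a description.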
